A study of Mus musculus with 2 samples.

Results

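Innate receptors that sense microbes, dying cells or chemoattractants were followed through single cells of mouse skin wounds by 10 genes. These were the C-type lectin receptors Clec4e, Clec4d, Clec4n and Clec7a, the amplifying receptor Trem1, the Toll-like receptors Tlr2 and Tlr4 with their co-receptor Cd14, the inflammasome sensor Nlrp3 and the formyl peptide receptor Fpr1. The rule of choice uses their names and no measured value, but the genes were chosen with earlier results of these data known. Of these 10 genes, 9 had a row among the 31053 genes of each count matrix, and Clec7a (Dectin-1) was not analysed here. These 9 are described below, mainly over the 8 cell classes with at least 50 cells in each library and over the macrophage states.

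The study asked how depleting Mrc1-expressing (CD206+) macrophages changes a healing wound. Both libraries came from C57BL/6 male mice of 7 to 9 weeks labelled Mrc1-DTR, in which the Mrc1 promoter drives the receptor for diphtheria toxin, so that cells outside the macrophage lineage that use this promoter can also be hit. Full-thickness wounds of the back skin were taken at day 5 with a 10 mm punch, and live cells were sorted before droplet sequencing with the 10x 3′ chemistry. The control library is labelled as PBS-treated Mrc1-DTR and the DTX library as Diphtheria toxin (DTX)-treated Mrc1-DTR. The study's methods describe the control mice differently, as wild-type animals given the toxin. The study's results give cell numbers after quality control. With the groups reversed, these equal the barcode numbers of the labelled files before filtering. The labels were followed throughout, and each direction below holds for the libraries as labelled. Cells of 3 mice were pooled per group and there is 1 library per condition, so treatment, pool and library cannot be told apart and no test of the treatment was possible.

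C-type lectin receptors of this group bind sugars and glycolipids: Clec4e (Mincle), Clec4d (MCL) and Clec4n (Dectin-2) have no signalling domain of their own and work through the adaptor Fcer1g, the kinase Syk and Card9. Trem1 couples to Tyrobp (DAP12) and amplifies Toll-like receptor responses, Tlr2 senses lipopeptides, and Tlr4 senses lipopolysaccharide handed over by Cd14. Nlrp3 assembles the inflammasome that matures interleukin 1 beta, and Fpr1 guides phagocytes to formylated peptides. In skin wounds these receptors are known chiefly from neutrophils, monocytes and macrophages.

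The 3 lectin genes that were measured are neighbours on mouse chromosome 6 (GRCm38, GENCODE M21): Clec4n at chr6:123229843-123247021 and Clec4d at chr6:123262111-123275265 on the plus strand, and Clec4e at chr6:123281789-123289870 on the minus strand. They span 60028 bases, with 6523 bases between Clec4d and Clec4e. Trem1 (chr17:48232768-48246924, plus strand) and Fpr1 (chr17:17876471-17883940, minus strand) share a chromosome, whereas Tlr2 (chr3:83836272-83841767, minus strand), Tlr4 (chr4:66827584-66930284, plus strand) and Nlrp3 (chr11:59541568-59566956, plus strand) each lie alone, as does Cd14. All 9 are protein-coding genes. Promoter sequence is shown for the lectin pair with the most similar profiles and for Trem1. Within the DTX library, Trem1 and Clec4e were both highest in the Vcan-like macrophage state described below. Tlr2 is shown as a receptor with another distribution. The sequences are those of RefSeq on GRCm38.p6, 5′ to 3′ on the gene's strand, and end at the last base before the RefSeq start site: chr6:123289872-123290121 for Clec4e, chr6:123261857-123262106 for Clec4d and chr17:48232489-48232738 for Trem1. The Tlr2 stretch, chr3:83841768-83841858, is cut to the 91 bases that lie upstream of any annotated exon. Capitals mark matches to 3 of 4 motifs searched on both strands.
Clec4e: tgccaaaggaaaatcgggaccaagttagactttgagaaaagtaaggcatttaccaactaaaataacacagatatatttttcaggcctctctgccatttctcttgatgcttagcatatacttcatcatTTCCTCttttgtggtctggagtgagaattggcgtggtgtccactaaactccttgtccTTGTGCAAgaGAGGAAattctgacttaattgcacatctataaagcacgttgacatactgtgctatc
Clec4d: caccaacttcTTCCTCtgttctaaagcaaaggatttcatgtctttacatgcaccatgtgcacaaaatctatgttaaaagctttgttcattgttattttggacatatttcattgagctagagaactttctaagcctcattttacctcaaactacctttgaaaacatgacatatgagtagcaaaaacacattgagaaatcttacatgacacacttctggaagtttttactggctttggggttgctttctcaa
Trem1: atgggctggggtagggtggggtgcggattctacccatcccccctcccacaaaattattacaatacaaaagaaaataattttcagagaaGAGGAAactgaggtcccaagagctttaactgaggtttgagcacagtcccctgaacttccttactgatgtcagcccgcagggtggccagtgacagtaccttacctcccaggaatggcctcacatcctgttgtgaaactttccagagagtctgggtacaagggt
Tlr2: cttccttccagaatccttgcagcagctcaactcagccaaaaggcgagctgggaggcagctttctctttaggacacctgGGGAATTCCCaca
The core GAGGAA of the myeloid factor PU.1 was found at 2 places before Clec4e and 1 place each before Clec4d and Trem1; 23.3% of 32851 mouse promoter windows of 250 bases hold it. The C/EBP motif TTGCNNAA was matched before Clec4e, 59 to 66 bases from the start, and is held by 9.56% of windows. The NF-kB motif (GGGA and CC with 4 bases between them) was matched before Tlr2, 163 to 172 bases from the start, and is held by 17.6% of windows. The AP-1 motif TGANTCA was also searched and matched none of the 4 stretches, against 6.75% of windows. These matches describe letters only. Of the 10 genes, 7 had a RefSeq promoter entry, and Clec4n, Tlr4 and Cd14 had none. Among the entries not shown, 1 of Nlrp3 held the PU.1 core at 3 places and the other held 1 NF-kB match. Each Clec7a entry held the PU.1 core at 1 place, and Fpr1 matched none of the 4 motifs.

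After filtering, 7944 cells of the control library and 6613 of the DTX library were kept, with 81235634 and 54872675 unique molecular identifiers (UMIs, one per captured RNA molecule) and a median of 9579.5 and 7286 UMIs per cell. Cells were grouped with the receptor genes left out of the genes used for grouping, and classes were named from marker lists. Macrophage-like cells made up 23.1% of the control and 68.6% of the DTX library (1836 and 4534 cells), neutrophil-like cells numbered 127 and 459, and fibroblast-like and epithelial-like cells numbered 3066 and 2067 in the control against 655 and 235 in the DTX library. The 15 macrophage markers summed to 29668 and 21493 counts per 1000000 UMIs (CPM) in macrophage-like cells and none was at 0. The class joins 2 clusters that the libraries fill differently: the larger held 1761 control and 2345 DTX cells, and the other, led by Chil3, Arg1 and Cxcl3 with Clec4d, Clec4e and Cd14 also among its 10 leading genes, held 75 and 2189. Both libraries share 37 barcodes. A share of cells depends on all other classes and on the sort. Mrc1 itself, the gene whose promoter drives the toxin receptor, came to 487 CPM among control macrophage-like cells and 429 CPM among those given the DTX label, a log2 ratio of −0.18 (95% interval −0.23 to −0.13). Levels below are the UMIs of a class summed over its cells, per 1000000 UMIs of that class and library; they are 3′ tag levels and are compared between cells, not between genes. All intervals are exact, at 95%, and cover counting error only.

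Most UMIs of all 9 receptors came from myeloid cells in the DTX library, and of 8 of them, Tlr4 excepted, in the control library. In the DTX library, macrophage-like cells gave between 72.0% (Trem1) and 90.4% (Tlr4) of the UMIs of each receptor other than Fpr1. For Fpr1 they gave 38.2%, and neutrophil-like cells gave 59.4%. In the control library the macrophage-like share was 78.2% for Clec4e, 83.1% for Clec4d and 83.5% for Cd14. The Toll-like receptors were spread more widely there. Fibroblast-like cells gave 41.1% of the control UMIs of Tlr2 and 59.0% of those of Tlr4, against 4.44% and 3.39% in the DTX library, which held fewer fibroblast-like cells. Langerhans-like cells (122 control and 37 DTX), mast-like cells (34 and 19) and myocyte-like cells (7 and 11) were too few to compare between libraries. Langerhans-like cells gave 7.89% of the control UMIs of Nlrp3 and 6.43% of those of Clec4n, against 0.580% and 0.397% in the DTX library. Mast-like cells gave 2.58% and 0.0894% of the Clec4e UMIs.

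Neutrophil-like cells had the higher CPM of 6 receptors in both libraries (Clec4e, Clec4d, Trem1, Cd14, Nlrp3 and Fpr1), with intervals that did not overlap those of macrophage-like cells. The Fpr1 level of macrophage-like cells was 0.609% of the neutrophil-like level in the control library and 2.29% in the DTX library, and for Trem1 these shares were 4.24% and 10.6%. Clec4n showed the opposite order in the DTX library, where macrophage-like cells were at 768 CPM and neutrophil-like cells at 348 CPM. For Tlr2 and Tlr4 the intervals of the 2 classes overlapped in the control library, as did those of Tlr2 in the DTX library (212 CPM in macrophage-like and 188 CPM in neutrophil-like cells). Dendritic-like cells carried Clec4n at 411 and 482 CPM in the control and DTX library and Clec4e at 67.0 and 111 CPM, and no UMI of Fpr1 in either.

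**Figure D1:**
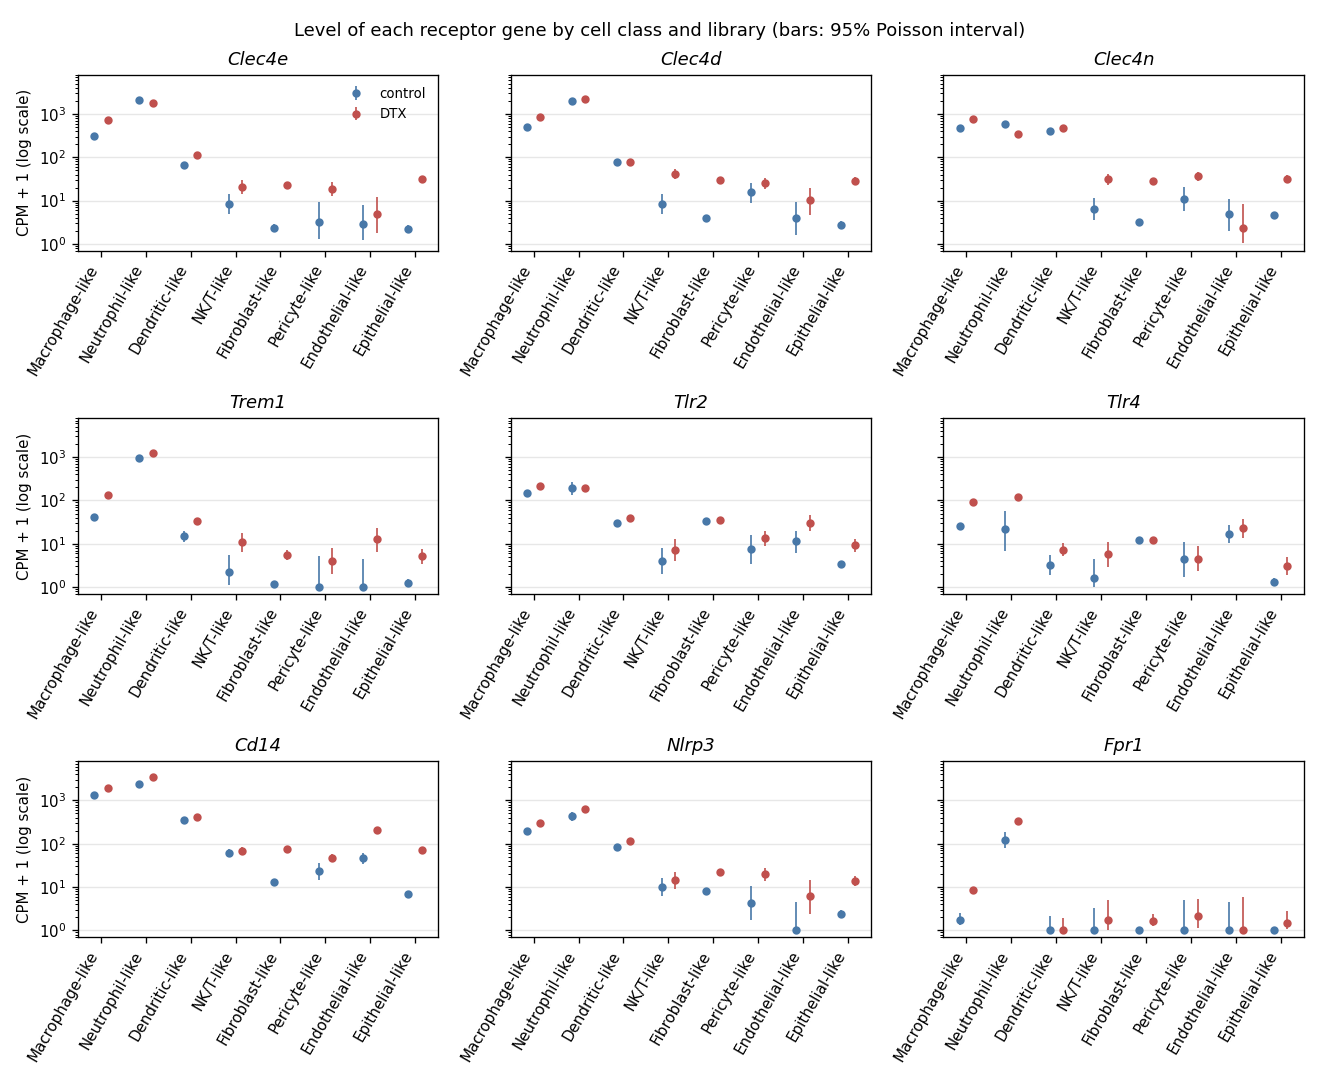
Level of each of the 9 receptors in 8 cell classes of the control and DTX libraries, as CPM plus 1 on a log axis, with exact 95% Poisson intervals as bars. Macrophage-like and neutrophil-like cells stand highest for most receptors, and Fpr1 reaches 124 and 338 CPM in neutrophil-like cells against 0.754 and 7.72 CPM in macrophage-like cells.

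In fibroblast-like and epithelial-like cells most receptors were higher in the DTX library, which held more macrophage-like cells, and so was RNA of macrophage marker genes. Over all kept cells, all 9 receptors were at least 2-fold higher in the DTX library, where 7.4% of 14439 genes were, with a median log2 ratio of 2.76 against −0.02 for all genes. These totals combine the number of cells of each class with the RNA per cell. In fibroblast-like cells 6 of the 8 receptors with at least 50 UMIs were more than 2-fold higher (2.62% of all genes were), among them Clec4e, from 1.37 to 22.3 CPM. In epithelial-like cells it was 6 of 6 (2.67% of genes).

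These levels were set beside those of 10 macrophage marker genes in the same cells. In fibroblast-like cells the markers had a median of 0.464% of their macrophage-like level in the control library (range 0.296% to 5.34%) and 3.44% in the DTX library (2.70% to 9.00%). Clec4e stood at 0.442% and 3.09%, Clec4d at 0.602% and 3.41% and Clec4n at 0.480% and 3.60%, which places the lectins within the range of the markers in both libraries. The part of macrophage RNA from outside these cells was not tested. The same held in epithelial-like cells, where the markers' medians were 0.375% and 3.73% and Clec4e was at 0.384% and 4.21%. Tlr2 and Tlr4 stood apart. In fibroblast-like cells they reached 22.1% and 45.5% of the macrophage-like level in the control library and 16.2% and 12.2% in the DTX library, above all 10 markers in both. Their total levels in fibroblast-like cells were nearly equal between libraries: Tlr2 was at 32.3 and 34.4 CPM (log2 ratio 0.09, −0.09 to 0.26) and Tlr4 at 11.2 and 11.2 CPM (0.00, −0.29 to 0.29). Macrophage RNA was not subtracted from these totals, and the median marker there was at 0.464% in the control and 3.44% in the DTX library. In endothelial-like cells Cd14, at 3.38% and 10.6%, was above all markers as well, with 48 UMIs in 73 control cells and 161 UMIs in 54 DTX cells. Tlr2 (11 and 23 UMIs) and Tlr4 (17 and 17 UMIs) were also above all markers there. The neutrophil marker S100a9 had 1 and 169 UMIs in the same cells, and the part of neutrophil RNA in their levels was not tested.

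**Figure D2:**
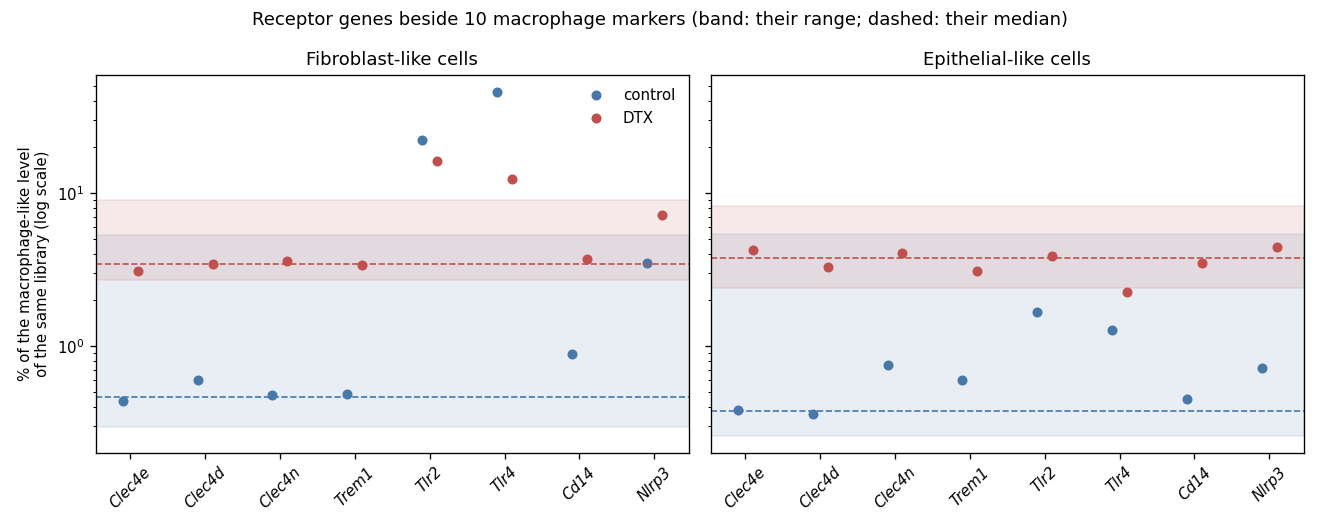
Level of 8 receptors in fibroblast-like and epithelial-like cells as a percentage of the macrophage-like level of the same library, on a log axis, for the control and DTX libraries; bands show the range and dashed lines the median of 10 macrophage marker genes. Lectins, Trem1 and Cd14 lie within the markers in fibroblast-like cells, while Tlr2 (22.1% and 16.2%) and Tlr4 (45.5% and 12.2%) lie above all of them.

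In macrophage-like cells all 9 receptors were higher in the DTX library, with intervals above 0, and 4 of them, Clec4e, Trem1, Tlr4 and Fpr1, passed 2-fold. Of 10261 genes with at least 50 UMIs, 1.56% passed 2-fold upward and 3.26% downward. The median log2 ratio (1 CPM added) was 0.80 over the receptors and 0.06 over all genes.

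Among the lectins, Clec4e (Mincle) was counted 2881 times in the control and 22797 times in the DTX library, or at 310 CPM (299 to 322) and 722 CPM (712 to 731). It was higher in the DTX cells by a log2 ratio of 1.21 (1.16 to 1.27). Clec4d (MCL), which pairs with Clec4e at the cell surface, was at 488 and 852 CPM (0.80, 0.76 to 0.85), and Clec4n (Dectin-2) at 470 and 768 CPM (0.71, 0.66 to 0.75). Neither of these neighbours reached 2-fold. The share of cells with a Clec4e UMI, after thinning every cell to 2000 UMIs, was 36.1% of 1610 control cells and 60.7% of 4392 DTX cells (48.6% and 80.0% unthinned), while in fibroblast-like cells, a class that should lack the gene, it was 0.268% and 3.08% at the same thinned depth (median depth before thinning 11177 and 13960 UMIs, against 4836 and 6770.5 in macrophage-like cells). Clec4d was found in 54.3% and 70.5% of thinned macrophage-like cells and Clec4n in 45.8% and 61.3%. Thinning left out 226 control and 142 DTX macrophage-like cells that were shallower than 2000 UMIs.

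Trem1 had 381 and 4239 UMIs, or 41.0 and 134 CPM (log2 ratio 1.69, 1.54 to 1.84), and the share of thinned macrophage-like cells with a UMI was 6.58% and 20.1%. Tlr4 showed a larger ratio from a low control level, with 229 and 2904 UMIs, or 24.7 and 91.9 CPM (1.86, 1.67 to 2.05). Its cells numbered 3.73% and 16.0% at the thinned depth. The other members of the bacterial sensing group differed less: Tlr2 was at 146 and 212 CPM (0.54, 0.45 to 0.62) and Cd14 (chr18:36725067-36726798, minus strand) at 1353 and 1969 CPM (0.54, 0.51 to 0.57). Thinned cells with a UMI made up 22.9% and 31.0% for Tlr2 and 79.7% and 86.9% for Cd14. Nlrp3 was at 199 and 291 CPM (0.55, 0.48 to 0.62), with a UMI in 28.9% and 40.0% of thinned cells. Fpr1 was near its detection limit, with 7 UMIs in the control and 244 in the DTX cells, or 0.754 and 7.72 CPM (2.31, 1.75 to 2.76), its UMIs were found in 0.381% and 3.66% of unthinned cells, and its ratio fell to 0.72 when 10 CPM were added in place of 1.

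**Figure D3:**
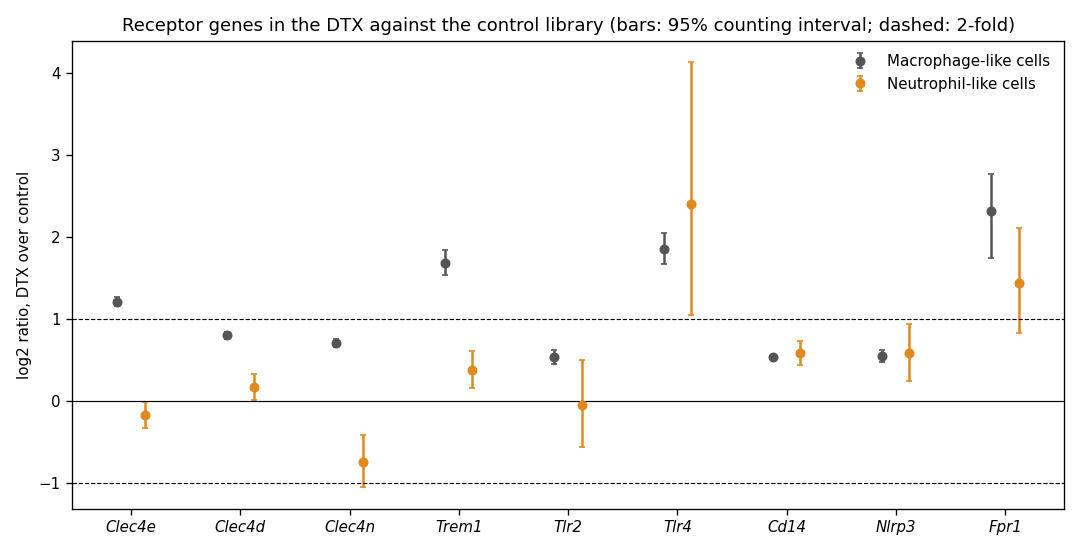
Log2 ratio of the DTX to the control library for each receptor in macrophage-like and neutrophil-like cells, with exact 95% intervals for counting error as bars. All 9 points are above 0 in macrophage-like cells, and Clec4e (−0.17) and Clec4n (−0.74) are below 0 in neutrophil-like cells.

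Marker genes of other cells also differed between the libraries, some upward like the receptors and some downward. A list of 10 neutrophil markers summed to 350 CPM in control and 580 CPM in DTX macrophage-like cells, a platelet list of 5 (2 at 0 in the control and 1 in the DTX cells) to 7.00 and 52.3 CPM, a fibroblast list of 11 genes to 756 and 157 CPM and an epithelial list of 11 to 469 and 136 CPM. None of the neutrophil, fibroblast and epithelial markers was at 0, and the part of platelet, fibroblast and epithelial RNA in the result was not tested. Il1r2, also a leading gene of a macrophage-like state described below, gave 1985 of 3249 control and 11650 of 18321 DTX UMIs of the neutrophil list. Single markers of low level differed by more than the sum. Wfdc21 was at 0.646 and 10.3 CPM, Mmp9 at 2.80 and 18.5, Retnlg at 0.108 and 2.09, and Cxcr2 at 0.215 and 1.93. Fpr1 was at 0.754 and 7.72 CPM in the same cells. Csf3r was lower, at 43.8 and 35.9 CPM. Over the 10 neutrophil markers the macrophage-like level in the DTX library ranged from 0.0685% (S100a9) to 23.8% (Il1r2) of the neutrophil-like level. Csf3r was next highest at 6.33%, so Trem1 (10.6%) was above every marker but Il1r2 in that library. Fpr1 (2.29%) lay among the other markers. In the control library, however, Trem1 (4.24%) was below both Il1r2 (9.74%) and Csf3r (6.96%). In macrophage-like cells with no UMI of S100a8 or S100a9, a comparison added after seeing the data, 4 receptors passed 2-fold, the median was 0.80 and the Fpr1 ratio was 1.93. Such cells can still hold neutrophil RNA, and its part in the result was not tested.

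Macrophage-like cells were grouped further into 8 states, again without the receptor genes, and the states were unequally filled. The C1qa-like state, led by Ccl8, Lpl and Igf1 with the complement genes C1qa, C1qc and C1qb also among its leading genes, held 1334 control and 319 DTX cells. A Vcan-like state with monocyte markers held 34 and 1215, a Cd9-like state 11 and 1104, a Ccl7-like state 61 and 944, an Ifit1-like state with interferon-induced genes 68 and 97, and a Klf2-like state with immediate-early genes 54 and 139. Cluster 4, with Il1r2 and MHC class II genes, held 118 and 647, and cluster 5, with Mgl2 and Ear2, held 156 and 69. These clusters got no name from the marker lists. The 15 macrophage markers summed to 16145 and 18619 CPM in cluster 4 and 16041 and 11594 CPM in cluster 5. A list of 15 dendritic markers summed to 359 and 285 CPM in cluster 4 and 483 and 516 CPM in cluster 5. It stood at 633 and 823 CPM in the Ifit1-like state and 3657 and 4023 CPM in dendritic-like cells. The part of dendritic cells in these states was not tested. A state with almost all its cells from 1 library may be that library and not a state of cells.

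Within the DTX library the Vcan-like state stood highest for Clec4e and Trem1. Clec4e was at 1156 CPM there and at 549 CPM in the other macrophage-like cells of that library (log2 ratio 1.07, 1.04 to 1.11), and Trem1 at 227 and 97.3 CPM (1.21). With Fpr1 (1.08), 3 of the 9 receptors passed 2-fold upward, against 0.758% of all genes, and 1 did when the states were drawn at resolution 0.8 in place of 0.5. In the 34 control cells of this state Clec4e was at 993 CPM and Trem1 at 188 CPM, close to the DTX levels. In the Cd9-like state only Fpr1 passed 2-fold (1.03, 1.51% of genes), and this state had the highest levels of the other lectins, with Clec4d at 1270 CPM (0.80) and Clec4n at 1068 CPM (0.65). Clec4n was nearly as high in cluster 4, at 1046 CPM. Tlr4 was at 128 CPM in the Cd9-like and 117 CPM in the Vcan-like state.

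The C1qa-like and Klf2-like states and cluster 5 of the DTX library were low for most receptors. In the C1qa-like state of the DTX library 4 of 9 receptors were at least 2-fold below the other macrophage-like cells (4.78% of genes were): Clec4e at 224 CPM (−1.74), Trem1 at 14.4 CPM (−3.20), Tlr4 (−1.31) and Fpr1 (−2.05, −3.00 to −0.75, from 2 UMIs). In the Klf2-like state it was 8 of 9 (7.05% of genes), with Clec4e at 186 CPM (−1.98), Clec4d at −2.12 and Cd14 at 618 CPM (−1.70), and Tlr2 was the exception at −0.11. Fpr1, with 1 UMI in that state, is counted among the 8 (−2.11, −3.12 to −0.34). In cluster 5, where 13.5% of all genes were lower, Clec4d was at 210 CPM (−2.04), Trem1 at 62.5 CPM (−1.11) and Tlr4 at 32.7 CPM (−1.48), and Fpr1 had 0 UMIs in 69 cells. Nlrp3 was not lower in cluster 5 (0.11, −0.09 to 0.31). Cd14 was near its highest in both the Vcan-like and Cd9-like states, at 2459 and 2434 CPM. The control library had another order for some receptors. There Clec4n was at 883 CPM in cluster 5 and 416 CPM in the other macrophage-like cells (1.08). Clec4d was at 532 and 398 CPM for the C1qa-like state (0.42). Other receptors were lower there too, such as Clec4d in cluster 5 (−0.70) and Trem1 in the C1qa-like state (−1.02).

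Because the libraries filled the states so differently, the ratio was also taken within the 6 states that had at least 50 cells in each library. This left out the Vcan-like and Cd9-like states, with 34 and 11 control cells and 1215 and 1104 DTX cells. Small states weigh as much as large ones in the means below. For every receptor that could be compared, the unweighted mean over these states was smaller than the ratio over all macrophage-like cells. It was 0.48 against 1.21 for Clec4e, 0.21 against 0.80 for Clec4d, 0.26 against 0.71 for Clec4n and 0.38 against 1.69 for Trem1. Cd14 came to 0.05 against 0.54, Tlr2 to 0.18 against 0.54 and Nlrp3 to 0.31 against 0.55. The Tlr4 ratio was above 0 in all 6 states, at a mean of 1.49 against 1.86, but its interval was above 0 in only 3 of the 5 states with at least 50 UMIs. In the Ifit1-like and Klf2-like states, which had its highest ratios (4.38 and 2.02), its control value was 1 UMI each. The Klf2-like state had under 50 UMIs of Tlr4 and of Trem1, and is part of both means. Across states the Tlr4 ratio ranged from 0.27 to 4.38. Fpr1 had under 50 UMIs in each of the 6 states. When the Vcan-like and Cd9-like states were left out of the whole class, also an alternative added after seeing the data, 2 receptors passed 2-fold in place of 4: Trem1 at 1.15 and Tlr4 at 1.27. Clec4e was then at 0.76, Clec4d at 0.15 and Cd14 at 0.13.

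The states did not move alike. In the C1qa-like state, the largest of the control library, Clec4e was lower in the DTX cells (275 and 224 CPM; −0.30, −0.46 to −0.14), and Trem1 was lower too, with 191 and 24 UMIs, or 30.5 and 14.4 CPM (−1.03, −1.66 to −0.45). Trem1 was the only receptor there to pass 2-fold downward, as 2.18% of all genes did. Clec4d (−0.22, −0.33 to −0.10) and Cd14 (−0.25, −0.32 to −0.17) were lower there by less. Clec4n went the other way in the same cells, from 389 to 627 CPM (0.69). The Ifit1-like state had 3 receptors past 2-fold upward against 4.74% of genes: Clec4d (1.02), Trem1 (2.28, from 8 to 84 UMIs) and Tlr4 (4.38, 2.21 to 6.18, from 1 to 59 UMIs). The 10 neutrophil markers summed to 385 CPM in control and 1186 CPM in DTX cells of that state, and the part of neutrophil RNA was not tested. In cluster 4 all 8 compared receptors were higher, from 0.25 for Cd14 to 0.84 for Clec4e. In cluster 5 Clec4e was higher (0.65) while Clec4d (−0.58), Clec4n (−0.71) and Cd14 (−0.32) were lower.

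**Figure D4:**
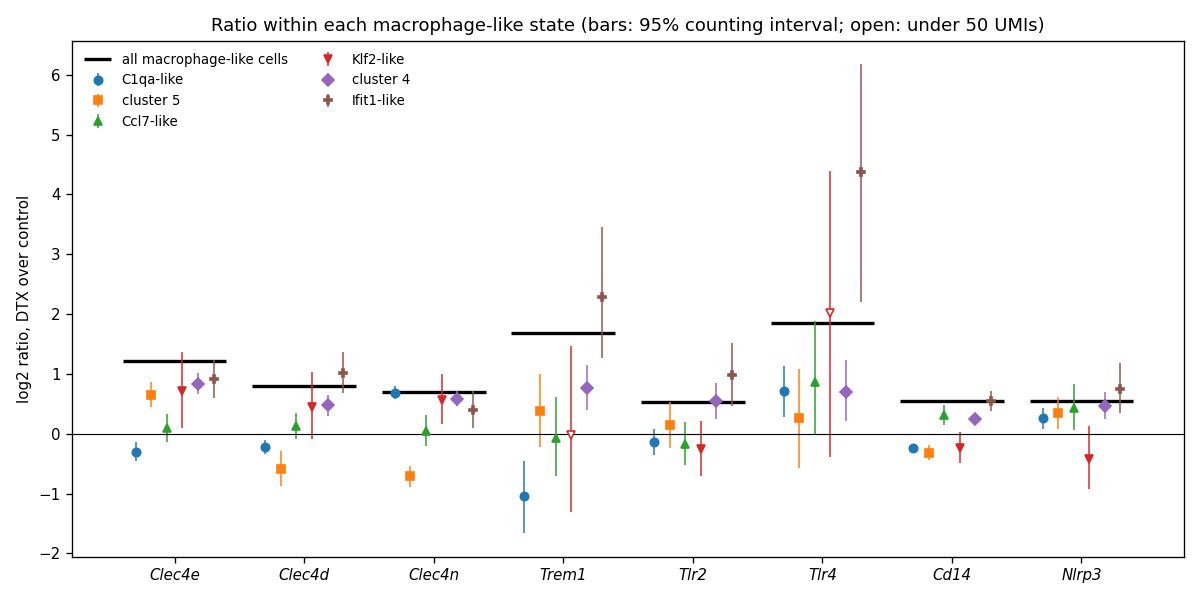
Log2 ratio of the DTX to the control library for 8 receptors, Fpr1 left out, within 6 macrophage-like states, as points with exact 95% intervals. A black line marks the overall ratio of each receptor, and open points have under 50 UMIs. Most points lie below the lines, as for Clec4e, whose state ratios run from −0.30 to 0.91 under a line at 1.21.

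In neutrophil-like cells the receptors did not move together. Of 9 receptors, 2 passed 2-fold upward, where 6.17% of 2788 genes did, and none downward, where 4.3% did. The median log2 ratio was 0.38, against −0.11 over all genes, and it turned to −0.070 when called doublets were kept (doublets were removed by a score threshold in the control and as the top 8% of scores in the DTX library). Fpr1 had 23 and 379 UMIs, or 124 and 338 CPM (1.44, 0.84 to 2.11), and Tlr4 had 4 and 132 UMIs, or 21.5 and 118 CPM (2.40, 1.05 to 4.13). Trem1, at 968 and 1263 CPM (0.38), Cd14, at 2340 and 3504 CPM (0.58), and Nlrp3, at 425 and 639 CPM (0.59), were higher by less. The Clec4e level was 2055 and 1830 CPM (−0.17, −0.33 to −0.01) and that of Clec4n 581 and 348 CPM (−0.74, −1.05 to −0.42), while Clec4d was at 1948 and 2190 CPM (0.17, 0.01 to 0.33). After thinning to 1000 UMIs (107 control and 455 DTX cells, with 20 and 4 shallower ones left out), Clec4e was found in 77.6% and 74.5% of cells, Clec4d in 78.5% and 87.0%, Clec4n in 29.9% and 21.8%, and Fpr1 in 11.2% and 26.6%. Thus the ratios of the 3 lectin neighbours differed in sign in this class, though that of Clec4e lay near the −0.11 of all genes. The Clec4e interval ended at −0.01 and the Clec4d interval began at 0.01. Tlr2 showed no difference at this depth (194 and 188 CPM, log2 ratio −0.04, −0.56 to 0.51). The control library had only 127 such cells, with a median of 1218 UMIs against 1920. Neutrophil-like cells also held RNA of the 15 macrophage markers, at a sum of 7823 (control) and 7014 (DTX) CPM. The same list stood at 29668 and 21493 CPM among macrophage-like cells. What part macrophage RNA had in the neutrophil-like levels and ratios was not tested. The 10 neutrophil markers summed to 45865 CPM in control and 93332 CPM in DTX neutrophil-like cells. Among them Retnlg (1194 and 2810 CPM) and Cxcr2 (221 and 527 CPM) were higher, and Csf3r (629 and 567 CPM) and Il1r2 (2195 and 1549 CPM) lower. The 11 fibroblast markers went from 2217 to 358 CPM and the 11 epithelial markers from 1657 to 355 CPM. The part of these differences in the ratios, such as that of Fpr1, was not tested.

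The remaining classes had few receptors to compare. Of 7 receptors in dendritic-like cells Trem1 alone passed 2-fold (1.3% of genes did), from 14.1 to 33.1 CPM (1.17, 0.70 to 1.66). In NK/T-like cells 2 of 3 did, Clec4d (2.33) and Clec4n (2.26), with 1.12% of genes, while the median macrophage marker there was at 3.02% of its macrophage-like level in the control and 2.71% in the DTX library. In pericyte-like cells it was Clec4n (1.71) and Cd14 (1.00) of 3, with 2.22% of genes and a median marker at 1.92% and 1.47%, and in endothelial-like cells Cd14 (2.17, 1.70 to 2.65), the 1 receptor with enough UMIs, with 1.86% of genes and a median marker at 0.317% and 1.47%. In NK/T-like cells Clec4d was at 1.51% and 4.80% of its macrophage-like level and Clec4n at 1.18% and 3.95%. The markers there ranged from 1.58% to 6.35% in the control and from 1.34% to 5.33% in the DTX library. These levels rest on 12 and 58 UMIs of Clec4d and 9 and 43 of Clec4n. The neutrophil markers S100a8 (2 and 48 UMIs) and S100a9 (8 and 133 UMIs) were also higher in the DTX NK/T-like cells. In pericyte-like cells S100a9 had 0 and 14 UMIs. The part of neutrophil RNA in these classes was not tested.

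Single macrophage-like cells carried several receptors. At 2000 UMIs per cell the median number of the 9 with a UMI was 3 in the control (mean 2.78) and 4 in the DTX library (mean 3.88), and 10.2% and 36.2% of cells had 5 or more. Cells without any were 4.04% and 1.66%. At the lower depth of 1000 UMIs, which the shallower neutrophil-like cells allowed, these cells had a mean of 3.77 and 4.38 receptors and macrophage-like cells 1.81 and 2.73. Within macrophage-like cells of 1 library the receptors were only weakly related: the median Spearman correlation over pairs was 0.06 in the control and 0.08 in the DTX library. Its highest values were 0.15 for Clec4e with Clec4d in the control and 0.29 for Clec4d with Cd14 in the DTX library. These are sparse counts of cells that share a library, and are given as a description.

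**Figure D5:**
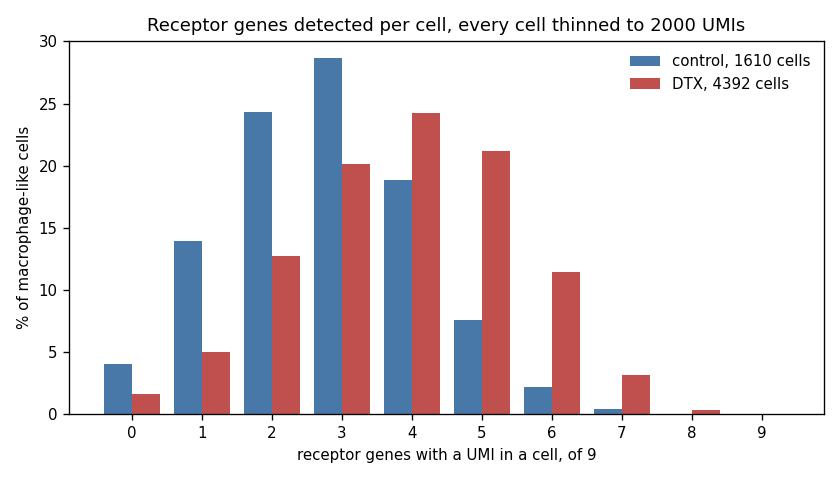
Percentage of macrophage-like cells, thinned to 2000 UMIs, by the number of the 9 receptors with at least 1 UMI, for 1610 control and 4392 DTX cells. The DTX macrophage-like cells are shifted upward, with 36.2% at 5 or more against 10.2%.

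Across 16 profiles (8 classes in 2 libraries) and 10231 genes, the receptors' patterns were set beside those of all other genes on the log2(CPM + 10) scale. Clec4e and Clec4d were most like each other (Pearson's r = 0.991). The nearest other genes were Sirpb1c (0.985), Cyp4f18 and Cd300lf for Clec4e, and Ccr1 (0.982), Arg2 and Sirpb1c for Clec4d. Clec4n lay closest to Alox5ap (0.980), Spi1 and Csf2ra, Trem1 to Cd33 (0.993), Tlr13 and Sirpb1b, and Nlrp3 to Gpr35 (0.982), Sirpb1c and Mefv. Among the genes nearest to Cd14 were Sh2b2 (0.969) and Osm, and Tlr2 lay closest to Bri3 (0.968), Oas2 and Sh2b2. The neutrophil gene Wfdc21 (0.997) led for Fpr1, with Stfa2l1 and Gm5483, and Tlr4 had the weakest neighbours, Sqor (0.933), Plaur and Dmxl2. The profiles of a library share its depth and its free RNA.

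The receptors' partners and relatives moved less than the receptors in macrophage-like cells. Of the 123 listed genes of these pathways 107 had at least 50 UMIs, of which 8 were more than 2-fold higher, 3 lower and 96 within 2-fold, with a median log2 ratio of 0.23, beside 1.56% of all genes higher, 3.26% lower and a median of 0.06. The shared signalling parts stayed within 2-fold: the adaptors Fcer1g (−0.04) and Tyrobp (0.20), the kinase Syk (−0.07) and its relay Card9 (0.29). The same held for the Tlr4 partner Ly96 (0.11), the Toll adaptor Myd88 (0.23) and the inflammasome parts Pycard (0.36) and Casp1 (0.10). Il1b, the cytokine whose product the inflammasome matures, was at 1927 and 3525 CPM (0.87).

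Those past 2-fold were mostly other surface receptors: the lectin Olr1, from 32.0 to 75.4 CPM (1.21), the TREM-like genes Trem3 (1.75), Treml2 (1.05) and Cd300lf (1.25), and the chemoattractant receptors Fpr2 (1.24) and C5ar1 (1.25), joined by the cytokine signalling inhibitor Socs3 (1.06). The eighth, the inflammasome gene Naip6, was named after its values were seen: it had 0 UMIs in the control and 90 in the DTX cells, at least 8.82-fold higher against a floor of 3 UMIs for the control class. Lower were the lectin Clec4b1 (−1.92), the inhibitory lectin Clec12a (−1.14) and Tnip3 (−1.11), a brake on NF-kB. By list, none of the 8 other Toll-like receptors, the 15 Toll adaptors or the 13 lectin and TREM signalling genes passed 2-fold either way. The list median was below 0 for the other lectins (−0.28, 5 of 9 genes below 0) and the Toll co-receptors (−0.19, 5 of 8). That of the TREM-like genes was −0.07 (4 of 7 below 0). It was above 0 for the remaining lists, up to 0.47 for the chemoattractant receptors. In neutrophil-like cells 12 of 58 tested genes passed 2-fold upward and 0 downward (median log2 ratio 0.19), beside 6.17% and 4.3% of all genes there and a median of −0.11. The 12 became 7 with 10 CPM added and 3 after thinning. Among them were Il1b (1.09) and Socs3 (1.03), and Fpr2 was at 0.91, Fcer1g at 0.50 and Tyrobp at −0.31.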

How the data were processed

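Single-cell RNA was measured in 2 libraries of day 5 wounds, 1 per condition. The authors aligned reads to mm10 with Cell Ranger and deposited UMI count matrices; the file header and the submitters' processing notes give version 6.1.1 and the methods 6.0.0. The libraries hold 12058 (control) and 11031 (DTX) barcodes with 105511870 and 81858751 UMIs, and share 37 barcodes. Whether a library joins the 2 technical replicates of the methods could not be told.

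Barcodes were kept from 500 genes upward and up to 6% of UMIs from mitochondrial genes. The methods also state a ceiling of 2000 genes, which leaves 2522 and 2642 cells and was tried as an alternative. Doublets were removed with Scrublet in scanpy 1.11.5 (382 control cells; it called none in the DTX library, where the highest-scoring 8%, 575 cells, were removed). Counts were clustered in Seurat 5.3.0 on R 4.3.3 (2000 variable genes without the listed genes, 30 components, resolution 0.2, and 0.5 within macrophage-like cells). Classes were named from marker lists and may differ from the authors' names. UMIs were summed per class and library (numpy 2.4.6, scipy 1.17.1), with exact Poisson, Clopper-Pearson and conditional binomial 95% intervals; these cover counting error only. Genes with at least 50 UMIs over both libraries in a class were compared, with 1 CPM added, and no p-value was computed. The calculation was tested on simulated data.

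The named genes were the receptors, Mrc1, the 3 genes most like each receptor, fixed partners, and listed pathway genes past 2-fold with at least 200 UMIs. One of the genes most like a receptor is not reported here. Members and lists were chosen with earlier results of these data known.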

Additional observations from a re-analysis of the deposited data

Results flagged for a closer look

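For 5 receptors the ratio was below 0 in some classes or states and above 0 in others, with intervals on either side of 0, and the differences between classes or states were not tested. Among classes, the log2 ratio of DTX to control of Clec4e was −0.17 in neutrophil-like cells, near the median of −0.11 over all genes there. It was higher, with an interval above 0, in 4 of 5 classes compared. That of Clec4n was −0.74 in neutrophil-like cells, against higher values in 6 of 7 classes. Fibroblast-like and epithelial-like cells, in which macrophage marker RNA was also higher in the DTX library, are among those classes for both genes. Neutrophil-like cells held macrophage marker RNA in both libraries too, and its part in their ratios was not tested.

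Among the macrophage-like states, Clec4e was lower in the DTX cells of the C1qa-like state (−0.30) and higher in 4 of 6 states, and Trem1 was lower there (−1.03) and higher in 2 of 5. Clec4d (−0.22) and Cd14 (−0.25) were lower in the same state. In cluster 5, with 156 control and 69 DTX cells, Clec4d was at −0.58 (higher in 2 of 6 states), Clec4n at −0.71 (higher in 4 of 6) and Cd14 at −0.32 (higher in 3 of 6). Each state is 1 library against 1 library. Cluster 5 got no name from the marker lists, and the part of dendritic cells in it was not tested.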

How the results depend on the processing

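Of 323 values recomputed under alternatives, 246 moved by less than their criterion and 77 moved by more. The sign of the neutrophil-like median turned when doublets were kept. All 116 values of single receptors in macrophage-like cells were above 0 (Clec4e 0.76 to 1.24, Trem1 1.15 to 1.76, Tlr4 1.27 to 2.15, Clec4d 0.15 to 0.97, Clec4n 0.54 to 0.84, Tlr2 0.36 to 0.57, Cd14 0.13 to 0.64, Nlrp3 0.46 to 0.64, Fpr1 0.72 to 3.21). The macrophage-like median of 0.80 became 0.97 with at most 2000 genes per cell, 0.72 with 10 CPM added, 0.73 with median-ratio scaling and 0.50, with 2 receptors past 2-fold in place of 4, without the Vcan-like and Cd9-like states. The neutrophil-like median of 0.38 became −0.070 with doublets kept. In all other classes together 20 receptor and class pairs were 2-fold higher and 0 lower; this became 31 with doublets kept, 3 with at most 2000 genes, 5 after thinning (both leave fewer UMIs), and 34 higher and 1 lower with no minimum of UMIs. At state resolution 0.8 in place of 0.5, 1 receptor in place of 3 passed 2-fold in the Vcan-like state, and the median within states, 0.31, became 0.42, and 0.49 at 0.3. The mean share of macrophage-like cells with a UMI of a receptor was 30.9% in the control and 43.1% in the DTX library after thinning, lower than without it in both. Of pathway genes, 8 higher in macrophage-like cells became 5 with 10 CPM added. In neutrophil-like cells 12 higher became 7 with 10 CPM added, 3 after thinning and 24 with no minimum, and 0 lower became 1 with doublets kept, with at most 2000 genes, with 0.1 CPM added and after thinning, 2 with means of per-cell shares and 9 with no minimum. The causes of these moves were not tested except where named.

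No paired analysis was possible because each condition has 1 library. For the same reason the spread between animals is unknown, and differences between pools, sorts or sequencing runs cannot be told apart from the toxin. Receptors with few UMIs, such as Fpr1 in macrophage-like cells and Tlr4 in control neutrophil-like cells, are limited by depth.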
